A study of Mus musculus with 16 samples.

Results

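The genes described here are 9 members of the bone morphogenetic protein (BMP) system: the ligands Bmp2, Bmp4, Bmp5 and Bmp6, the receptor Bmpr2, the secreted antagonist Grem1, and the target genes Id1, Id2 and Id3. They were taken by symbol from the log2 array table, with the probe of the highest mean over the 16 arrays standing for each symbol, and all 9 were found among 20863 genes with a named probe. Bmp4 had 2 probes and the other 8 members had 1 each. No filter on low values was applied, so all 9 members were tested.

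The arrays measured whole lung of C57BL/6 mice of 9 to 12 weeks. A locked nucleic acid (LNA) inhibitor of the microRNA miR-199a-5p, or a control LNA, reached the lung by the intratracheal route in 3 doses of 5 mg/kg, given 4 days before, 2 days before and 4 days after either bleomycin at 1 unit/kg, which injures the lung and is used to model fibrosis, or PBS. The 4 groups were bleomycin with LNA-miR-199a-5p (n = 5), bleomycin with LNA-control (n = 5), PBS with LNA-miR-199a-5p (n = 3) and PBS with LNA-control (n = 3), so every mouse had received an LNA and no group was untreated. The labels used here give neither the day of lung collection nor whether each array is a separate mouse, so p-values measure the spread between these arrays.

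BMP ligands bind paired type I and type II receptors, which phosphorylate receptor-regulated SMAD proteins that enter the nucleus with Smad4. Secreted antagonists such as gremlin 1 bind the ligands before they reach the receptors. Genes of the Id family are direct SMAD targets, and their proteins hold basic helix-loop-helix transcription factors in pairs that cannot bind DNA. In the lung this system is best known from the vasculature, where loss of the type II receptor BMPR2 causes heritable pulmonary arterial hypertension, and from fibrosis, where gremlin 1 is made by mesenchymal cells.

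The inhibited microRNA is shown so that its seed can be read, with bases 2 to 8 in capitals. RefSeq (GRCm38.p6) places the same mature sequence at Mir199a-2 (chr1:162217844-162217866, plus strand) and Mir199a-1 (chr9:21496537-21496559, minus strand).
mmu-miR-199a-5p: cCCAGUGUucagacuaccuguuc

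Promoters are shown for the 4 members chosen to show both directions of difference between the 2 bleomycin groups, Bmp6 and Id3 (higher with LNA-miR-199a-5p) and Grem1 and Id2 (lower). Each is the 250 bases before the RefSeq gene start in GRCm38.p6, written 5' to 3' on the gene's strand, with the GC-rich BMP-responsive SMAD motif GGCGCC in capitals. The windows are chr13:38345466-38345715 (plus strand) for Bmp6, chr4:136143572-136143821 (plus) for Id3, chr2:113758649-113758898 (minus) for Grem1 and chr12:25096093-25096342 (minus) for Id2.
Bmp6: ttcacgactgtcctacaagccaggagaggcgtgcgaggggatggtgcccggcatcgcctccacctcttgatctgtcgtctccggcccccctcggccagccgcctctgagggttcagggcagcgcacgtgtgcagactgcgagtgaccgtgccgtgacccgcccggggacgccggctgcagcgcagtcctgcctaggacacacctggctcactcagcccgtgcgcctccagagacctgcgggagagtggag
Id3: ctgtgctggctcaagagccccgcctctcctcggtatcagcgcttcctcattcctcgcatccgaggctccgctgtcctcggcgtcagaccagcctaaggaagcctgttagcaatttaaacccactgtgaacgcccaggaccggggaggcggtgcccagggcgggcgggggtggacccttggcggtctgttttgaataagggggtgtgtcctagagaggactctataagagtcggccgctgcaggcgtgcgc
Grem1: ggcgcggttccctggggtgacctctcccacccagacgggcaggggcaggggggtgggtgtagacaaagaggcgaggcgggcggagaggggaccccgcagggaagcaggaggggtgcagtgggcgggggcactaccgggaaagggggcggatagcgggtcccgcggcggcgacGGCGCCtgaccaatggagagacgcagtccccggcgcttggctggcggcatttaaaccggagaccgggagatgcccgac
Id2: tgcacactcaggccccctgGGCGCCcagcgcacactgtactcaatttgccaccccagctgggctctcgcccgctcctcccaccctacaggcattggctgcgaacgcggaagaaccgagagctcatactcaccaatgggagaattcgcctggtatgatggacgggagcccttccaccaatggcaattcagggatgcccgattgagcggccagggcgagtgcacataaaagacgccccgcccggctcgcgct

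The motif, which reads the same on both strands, was present once in the Grem1 window, ending 72 bases before the start, and once in the Id2 window, ending 225 bases before it. No match was found in the Bmp6 or Id3 window. Of the 7 members of 9 with a promoter in the table, Bmpr2 also held 1 match, and Bmp4 and Bmp5 held none, while 3149 of 32851 promoter windows of the same length (9.59%) held the motif. GC content was 68.8% for Bmp6, 62.8% for Id3, 72% for Grem1 and 62.8% for Id2, against a median of 52.4% over all windows. The letters that match are a description of these windows and not evidence of binding.

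Some arrays stood apart in markers of other tissues. Rag1, a thymocyte gene, was high on 2 arrays of the bleomycin LNA-control group, replicate 1 (10.03 log2 units) and replicate 4 (10.88). The remaining 14 arrays read 5.43 to 6.10. Krt13, a keratin of stratified squamous epithelium, read 5.59 on replicate 3 of the PBS LNA-miR-199a-5p group and 11.38 to 15.73 elsewhere. The brown fat gene Ucp1 read 5.56 on that array and 5.57 on replicate 3 of the PBS LNA-control group. It read 7.65 on replicate 5 of the bleomycin LNA-control group and 10.33 to 13.86 elsewhere. The alveolar type II gene Sftpc (18.1 to 18.3) and the club cell gene Scgb1a1 (18.0 to 18.3) were near the top of the scale on every array. Passing means a limma p (from a moderated linear model) that stays under 0.05 after Benjamini-Hochberg adjustment over all 20863 genes. A difference of 1 log2 unit is a doubling of the array signal.

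In bleomycin lungs, 7 of the 9 members differed between LNA-miR-199a-5p and LNA-control (limma), when 24.9% of all genes did. Bmp6, Bmp2, Id1 and Id3 were higher with LNA-miR-199a-5p (13.4% of all genes were), and Grem1, Id2 and Bmp5 were lower (11.4%). The groups did not overlap for 6 members (13.8% of all genes). In lungs with LNA-control, bleomycin changed 4 members against PBS, when 17.5% of all genes were called. Bmp6 and Bmp2 were lower (7.9% of all genes) and Grem1 and Id2 higher (9.6%), and 5 members did not overlap (25.3% of all genes). No member passed for bleomycin against PBS in lungs with LNA-miR-199a-5p, or for LNA-miR-199a-5p against LNA-control in PBS lungs. In these bulk samples, fewer cells of a type and less RNA per cell cannot be told apart.

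**Figure D1:**
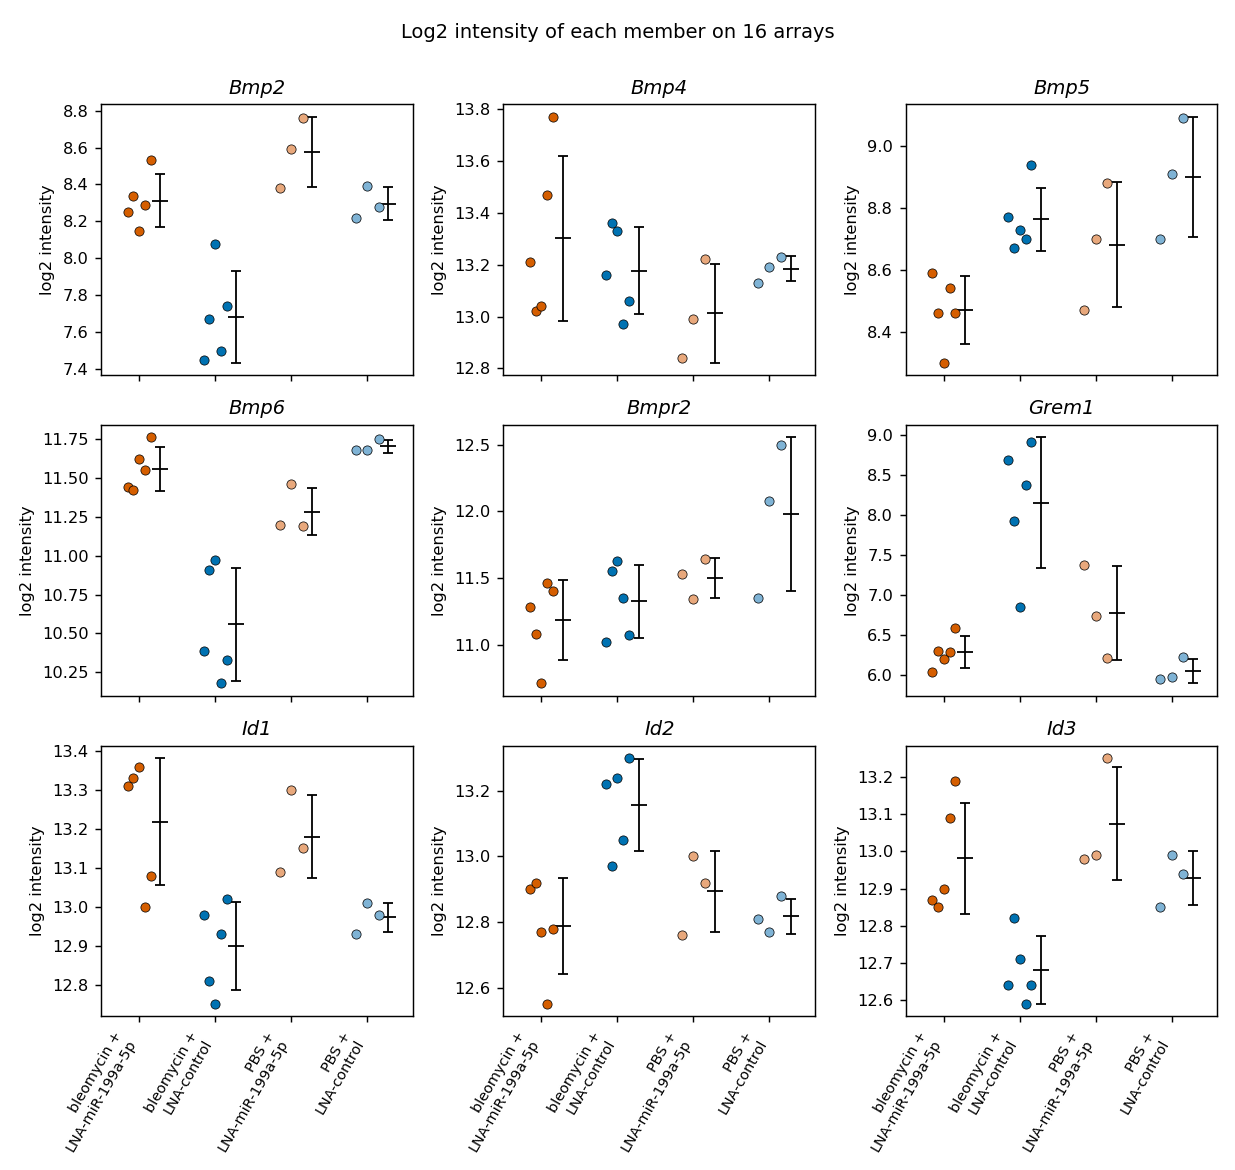
Log2 array intensity (y axis, a separate scale for each panel) of the 9 members on each of the 16 arrays, by group on the x axis, with points for arrays, and to their right the group mean with its SD. Grem1 read 6.85 to 8.92 in bleomycin lungs with LNA-control, above the 6.03 to 6.59 of bleomycin lungs with LNA-miR-199a-5p, and Bmp6 showed the opposite order.

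Bmp6 encodes a ligand of the BMP5, BMP6 and BMP7 subgroup, known for its control of hepcidin in the liver, where endothelial cells make it. It read 11.44, 11.42, 11.62, 11.55 and 11.76 in bleomycin lungs with LNA-miR-199a-5p, against 10.39, 10.91, 10.97, 10.18 and 10.33 in bleomycin lungs with LNA-control. In PBS lungs it read 11.20, 11.46 and 11.19 with LNA-miR-199a-5p, against 11.68, 11.68 and 11.75 with LNA-control. The 5 arrays of the bleomycin LNA-control group were the lowest of the 16, and the 2 bleomycin groups did not overlap. With LNA-miR-199a-5p, Bmp6 was 2.00-fold higher in bleomycin lungs, a log2 difference of 1.00 ± 0.14 (SE, limma adjusted p = 0.000102, exact two-sided permutation p = 0.00794). With LNA-control, it was 2.21-fold lower after bleomycin than after PBS (log2 difference -1.15 ± 0.16, limma adjusted p = 9.62e-05). Between the PBS groups it was lower with LNA-miR-199a-5p on all arrays (log2 difference -0.42 ± 0.17), with an unadjusted p of 0.0285 and a limma adjusted p of 0.602. The exact permutation test of 3 against 3 arrays cannot go below 0.1, the value it gave.

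Grem1, the antagonist, took the reverse order. It read 6.03, 6.30, 6.20, 6.29 and 6.59 in bleomycin lungs with LNA-miR-199a-5p, against 8.69, 7.93, 6.85, 8.38 and 8.92 in bleomycin lungs with LNA-control. In PBS lungs it read 7.38, 6.74 and 6.21 with LNA-miR-199a-5p, against 5.95, 5.97 and 6.22 with LNA-control. Replicate 3 of the bleomycin LNA-control group was the lowest of its group and lay below replicate 1 of the PBS LNA-miR-199a-5p group, while the 2 bleomycin groups stayed apart. Grem1 was 3.66-fold lower with LNA-miR-199a-5p in bleomycin lungs (log2 difference -1.87 ± 0.30, limma adjusted p = 0.000408, exact permutation p = 0.00794). It was 4.31-fold higher after bleomycin than after PBS with LNA-control (log2 difference 2.11 ± 0.35, limma adjusted p = 0.000509). Between the PBS groups the difference was 0.73 log2 units, with a 95% interval of -0.10 to 1.55. Outside bleomycin with LNA-control, most Grem1 readings lay near the median of all spots (6.14) and near Rag1 on the 14 arrays without thymus signal (5.43 to 6.10). Signal over background was not analysed here, so these folds are in array signal and their lower side is not shown to be above background.

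The bleomycin response of both genes depended on the LNA given. The difference between the bleomycin effect with LNA-miR-199a-5p and that with LNA-control was 1.42 ± 0.22 log2 units for Bmp6 (limma adjusted p = 0.00163) and -2.60 ± 0.49 for Grem1 (adjusted p = 0.00592). These were 2 of the 9 members, 1 in each direction, when 7.01% of all genes passed this interaction test, 3.07% with a positive and 3.94% with a negative difference. After bleomycin with LNA-miR-199a-5p, Bmp6 was 0.27 ± 0.16 above PBS (95% interval -0.06 to 0.60) and Grem1 was -0.49 ± 0.35 (interval -1.23 to 0.25), and neither passed. The Bmp2, Bmp6 and Grem1 calls of both comparisons against bleomycin with LNA-control held when any 1 of the 16 arrays was left out, and without the 2 arrays rich in thymus transcripts.

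Bmp2 encodes a ligand of the BMP2 and BMP4 subgroup, which gremlin 1 binds. It read 8.25, 8.34, 8.15, 8.29 and 8.53 in bleomycin lungs with LNA-miR-199a-5p, against 7.45, 7.67, 8.08, 7.50 and 7.74 in bleomycin lungs with LNA-control. After PBS the values were 8.38, 8.59 and 8.76 with LNA-miR-199a-5p, against 8.22, 8.39 and 8.28 with LNA-control. All 5 arrays of the bleomycin LNA-control group lay below the other 11. Bmp2 was 1.54-fold higher with LNA-miR-199a-5p in bleomycin lungs (log2 difference 0.63 ± 0.11, limma adjusted p = 0.000867, exact permutation p = 0.00794). It was 1.53-fold lower after bleomycin than after PBS with LNA-control (log2 difference -0.61 ± 0.13, limma adjusted p = 0.00302). With LNA-miR-199a-5p the bleomycin difference was -0.27 ± 0.13 (95% interval -0.54 to 0.01), and its difference from that with LNA-control was 0.35 ± 0.18 (adjusted p = 0.273).

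Bmp5 and Bmp4 moved less. Bmp5, a ligand close to Bmp6 in sequence, averaged 8.47 ± 0.11 in bleomycin lungs with LNA-miR-199a-5p and 8.76 ± 0.10 in bleomycin lungs with LNA-control (SD, n = 5 each), with no overlap between the arrays. It was 1.23-fold lower with LNA-miR-199a-5p (log2 difference -0.29 ± 0.09, limma adjusted p = 0.0264), but the call was lost without replicate 3 of the bleomycin LNA-miR-199a-5p group (adjusted p = 0.0637), and in the bleomycin LNA-control group without replicate 1 (0.0522) or 5 (0.0744). Without the 2 thymus-rich arrays the difference was -0.31 (adjusted p = 0.0884). In PBS lungs Bmp5 read 8.47, 8.70 and 8.88 with LNA-miR-199a-5p, against 8.70, 8.91 and 9.09 with LNA-control. It was lower with LNA-miR-199a-5p in all 3 pairs of the same replicate number, a pairing that no label gives, while the groups overlapped. The difference of -0.22 ± 0.12 did not pass (limma adjusted p = 0.743), nor did it with the replicate number as a block (-0.22 ± 0.13, adjusted p = 0.824).

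Bmp4, a ligand of airway and vascular development, read 13.02 to 13.77 in bleomycin lungs with LNA-miR-199a-5p, 12.97 to 13.36 in bleomycin lungs with LNA-control, 12.84 to 13.22 in PBS lungs with LNA-miR-199a-5p and 13.13 to 13.23 in PBS lungs with LNA-control. All 4 ranges overlapped, and no comparison passed. The inhibitor difference in bleomycin lungs was 0.13 ± 0.13 log2 units (95% interval -0.15 to 0.40). The second Bmp4 probe, with a mean of 5.22, below the 25th percentile of gene means (5.73), was not called either.

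Bmpr2, the type II receptor, varied widely within groups. It read 11.28, 11.08, 10.71, 11.46 and 11.40 in bleomycin lungs with LNA-miR-199a-5p, against 11.02, 11.55, 11.63, 11.35 and 11.07 in bleomycin lungs with LNA-control. In PBS lungs it read 11.53, 11.34 and 11.64 with LNA-miR-199a-5p, against 11.35, 12.08 and 12.50 with LNA-control. Replicates 2 and 3 of the PBS LNA-control group were the highest of the 16, and replicate 1 lay among the bleomycin lungs. The bleomycin difference with LNA-control was -0.65 ± 0.22 (95% interval -1.12 to -0.19), at the threshold with a limma adjusted p of 0.0502. Without replicate 1 of the PBS LNA-control group it was -0.97 (adjusted p = 0.00504), and it also passed without replicate 2 (0.0454) or 3 (0.0337) of the bleomycin LNA-control group or replicate 3 of the bleomycin LNA-miR-199a-5p group (0.0372). Without replicate 3 of the PBS LNA-control group, the highest array, it shrank to -0.39 (adjusted p = 0.323). Between the bleomycin groups the difference was -0.14 ± 0.19 (interval -0.54 to 0.26).

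The 3 Id genes did not move as a block: in bleomycin lungs Id1 and Id3 were higher with LNA-miR-199a-5p and Id2 was lower, each by less than 1.3-fold. Id1, the Id gene most often used as a readout of BMP signalling in endothelial cells, read 13.31, 13.33, 13.36, 13.00 and 13.08 with LNA-miR-199a-5p, against 12.98, 12.81, 12.75, 12.93 and 13.02 with LNA-control. The 2 groups overlapped at one point, since replicate 4 of the bleomycin LNA-miR-199a-5p group lay just below replicate 5 of the bleomycin LNA-control group. The difference was 0.32 ± 0.08 log2 units, or 1.25-fold (limma adjusted p = 0.00901, exact permutation p = 0.0159). Id1 read 13.09, 13.30 and 13.15 in PBS lungs with LNA-miR-199a-5p, against 12.93, 13.01 and 12.98 in PBS lungs with LNA-control, a difference of 0.21 ± 0.10 with no overlap that did not pass (adjusted p = 0.714). With LNA-control, the bleomycin difference was -0.07 ± 0.09 (95% interval -0.27 to 0.12).

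Id3, which like Id1 is expressed in vascular cells, read 12.87, 12.85, 12.90, 13.09 and 13.19 in bleomycin lungs with LNA-miR-199a-5p, against 12.64, 12.82, 12.71, 12.59 and 12.64 in bleomycin lungs with LNA-control. After PBS the values were 12.98, 12.99 and 13.25 with LNA-miR-199a-5p, against 12.85, 12.99 and 12.94 with LNA-control. The bleomycin lungs with LNA-control lay below the other 11 arrays. Id3 was 1.23-fold higher with LNA-miR-199a-5p in bleomycin lungs (log2 difference 0.30 ± 0.08, limma adjusted p = 0.0123, exact permutation p = 0.00794). Without the 2 thymus-rich arrays this was 0.25 and did not pass (adjusted p = 0.103). Against PBS with LNA-control the bleomycin difference was -0.25 ± 0.09 (adjusted p = 0.0796), and without replicate 2 of the bleomycin LNA-control group it was -0.28 (adjusted p = 0.0484).

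Id2, which also acts in the differentiation of innate lymphoid cells and other leukocytes, read 12.90, 12.92, 12.77, 12.55 and 12.78 in bleomycin lungs with LNA-miR-199a-5p, against 13.22, 12.97, 13.24, 13.05 and 13.30 in bleomycin lungs with LNA-control. In PBS lungs it read 12.76, 13.00 and 12.92 with LNA-miR-199a-5p, against 12.81, 12.77 and 12.88 with LNA-control. The 2 bleomycin groups did not overlap. Id2 was 1.29-fold lower with LNA-miR-199a-5p in bleomycin lungs (log2 difference -0.37 ± 0.08, limma adjusted p = 0.00463). With LNA-control it was 1.26-fold higher after bleomycin than after PBS (log2 difference 0.34 ± 0.10, limma adjusted p = 0.0223). That second call rested on few arrays: leaving out bleomycin LNA-control replicate 1 or 5 gave an adjusted p of 0.0512 or 0.0565, and leaving out PBS LNA-control replicate 1, 2 or 3 gave 0.0698, 0.0923 or 0.0511. It was 0.0603 without the thymus-rich arrays. The difference between the bleomycin effects in the 2 LNA arms was -0.44 ± 0.14 (adjusted p = 0.0611), and -0.49 (0.0313) without replicate 2 of the bleomycin LNA-control group.

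**Figure D2:**
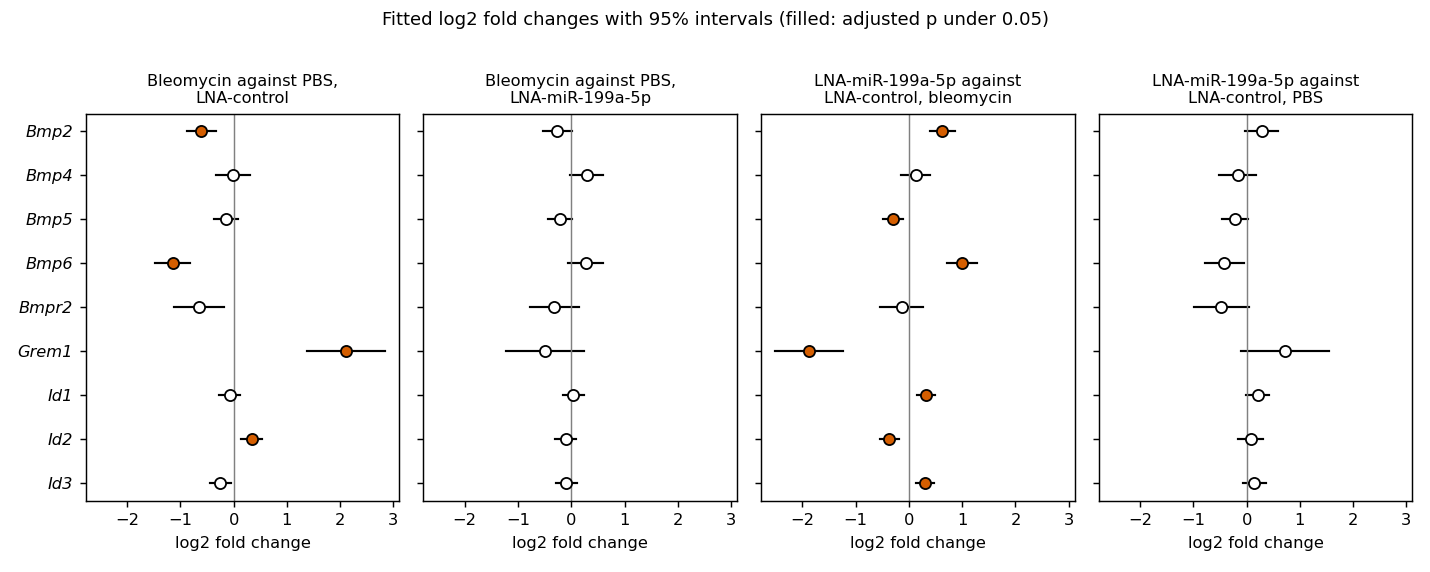
Log2 fold change (x axis) of each member (y axis) in each comparison, with 95% intervals and filled points for an adjusted p under 0.05. Filled points number 7 for the inhibitor in bleomycin lungs, 4 for bleomycin with LNA-control, and 0 for the inhibitor in PBS lungs.

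For bleomycin against PBS in lungs with LNA-miR-199a-5p, 0 of 9 members passed in limma when 13.4% of all genes did (7.31% higher and 6.04% lower), and 0 had an unadjusted p under 0.05. No member had groups apart, against 20.7% of all genes, and the exact permutation test gave no p below 0.0714. For LNA-miR-199a-5p against LNA-control in PBS lungs, 0 of 9 passed when 0.0479% of all genes did (0.0336% higher and 0.0144% lower). That is 10 genes, or 3 with the replicate number as a block. Here 1 member, Bmp6, had an unadjusted p under 0.05, and 2 members, Bmp6 and Id1, had groups apart (18.1% of all genes). The median member difference was 0.13 log2 units for the inhibitor in bleomycin lungs and -0.14 for bleomycin with LNA-control, with members on both sides, against 0.01 and 0.00 over all genes. The comparisons against bleomycin with LNA-control share those 5 arrays, so their opposite signs are not independent of each other.

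Arrays within bleomycin with LNA-control differed in step for some members and not for others. Replicate 3 had the lowest Grem1 (6.85) and the highest Bmp6 (10.97) and Bmp2 (8.08) of the group. Replicate 2 was next for Grem1 (7.93) and Bmp6 (10.91), while replicate 5 was next for Bmp2 (7.74). Id1, higher with LNA-miR-199a-5p, was lowest on replicates 3 (12.75) and 2 (12.81). Id2, lower with LNA-miR-199a-5p, was 13.24 on replicate 3, below only replicate 5 (13.30), and 12.97 on replicate 2. Replicates 3 and 2 had the highest mean of 16 endothelial markers in the group, 12.86 on replicate 3 and 12.78 on replicate 2, against 12.58 to 12.63 on the other 3. Endothelium was not alone in this. In the same order, these arrays also had the highest heart muscle (11.94 and 11.69), squamous (11.01 and 10.83) and lung epithelial (15.02 and 14.98) marker means. Their white fat marker means (10.86 and 11.09) were the lowest of the group.

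Markers of several cell types moved with the members. Of the 16 endothelial markers, 13 were higher with LNA-miR-199a-5p in bleomycin lungs (13.4% of all genes). After bleomycin with LNA-control, 12 of the 16 were lower (7.9% of all genes). Their mean level per array was 13.08 to 13.25 in bleomycin lungs with LNA-miR-199a-5p, 12.58 to 12.86 in bleomycin lungs with LNA-control, 12.90 to 13.17 in PBS lungs with LNA-miR-199a-5p and 13.13 to 13.16 in PBS lungs with LNA-control. Of 11 macrophage markers, 8 were lower (11.4% of all genes) and 2 higher (13.4%) with LNA-miR-199a-5p in bleomycin lungs. The macrophage mean level was 12.19 to 12.33 there, against 12.97 to 13.25 with LNA-control. Of 13 fibroblast markers, 5 were higher and 6 lower with LNA-miR-199a-5p, and all 10 heart muscle markers were higher. Of 8 white fat markers, 6 were higher and none lower, with a mean level of 11.88 to 12.12 against 10.86 to 11.47 with LNA-control. Smooth muscle and leukocyte markers each had 4 of 8 higher and 1 lower. Their part in the members' differences was not tested beyond a fit with the marker mean as a covariate. With the endothelial mean as a covariate, the inhibitor difference in bleomycin lungs was 0.22 ± 0.24 for Bmp6 and -0.02 ± 0.50 for Grem1, and 0 of 9 members passed in limma (3 at an unadjusted p under 0.05). The difference was larger for Id1 (0.67 ± 0.16, adjusted p = 0.0793) and Bmp5 (-0.44 ± 0.21) and smaller for Id2 (-0.29 ± 0.20), with wider errors than without the covariate. With squamous, brown fat and heart means as covariates it was 0.31 for Bmp6 and -1.06 ± 0.56 for Grem1, again with 0 passing (5 unadjusted). Here Id1 was at 0.58 ± 0.16, Bmp5 at -0.43 ± 0.15 and Id2 at -0.39 ± 0.18, all at least as large as without covariates, while Bmp2 was at 0.13 and Id3 at 0.07. For bleomycin against PBS with LNA-control, Grem1 was at 0.32 and Bmp6 at -0.39 with the endothelial covariate, and neither passed. With the other covariate set Bmp6 passed at -0.79 (limma adjusted p = 0.0105), while Grem1 was at 1.54 (adjusted p = 0.0514). The endothelial mean did not overlap between the bleomycin groups. Nor did the heart muscle mean (11.99 to 12.68 with LNA-miR-199a-5p, 11.35 to 11.94 with LNA-control) or the squamous mean (11.04 to 11.77 and 10.06 to 11.01). Marker level and group therefore cannot be told apart there with either covariate set.

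**Figure D3:**
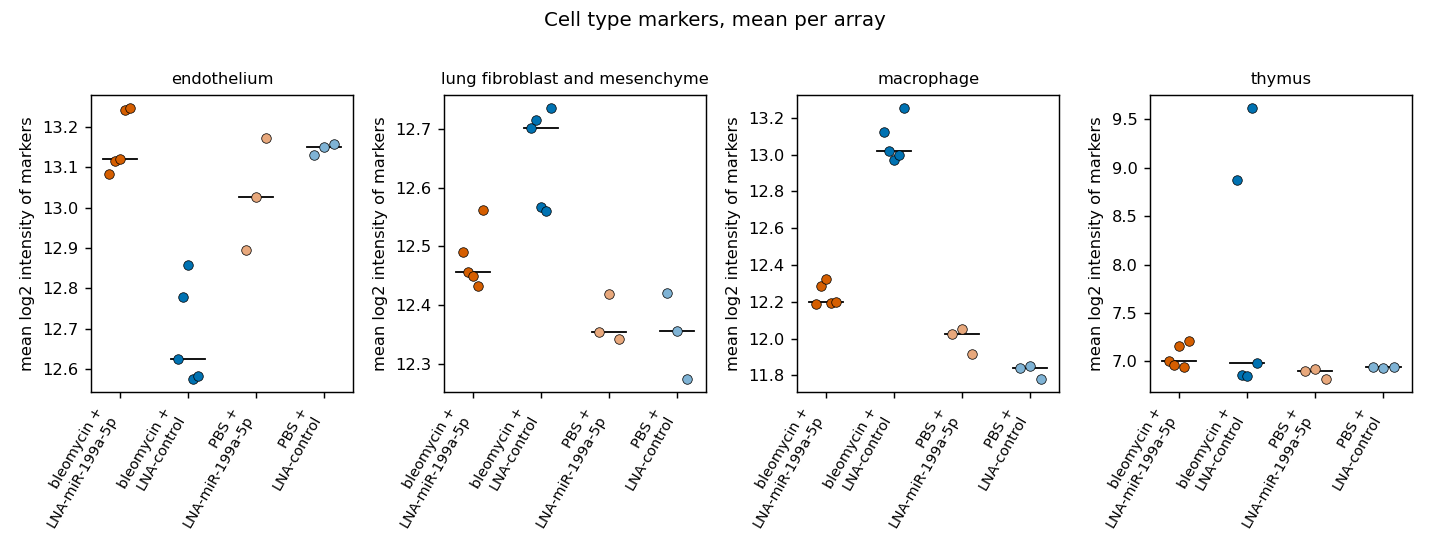
Mean log2 intensity (y axis) of 4 marker lists on each array by group (x axis), with points for arrays and a bar for the group median. The endothelial mean was 12.58 to 12.86 in bleomycin lungs with LNA-control, below all 11 other arrays, and 2 arrays of that group had raised thymus markers.

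The rest of the pathway was described from 75 other measured genes, listed by role, among them 10 basic helix-loop-helix partners of Id proteins. The lists were chosen with earlier results of these data known, so their shares are a description and not a test. In bleomycin lungs, 22 were higher and 11 lower with LNA-miR-199a-5p (44%, against 24.9% of all genes), and with LNA-control 6 were higher and 19 lower after bleomycin (33.3%, against 17.5%). The counts by role below have the same background. Of all genes, 13.4% were higher and 11.4% lower for the inhibitor, and 9.6% higher and 7.9% lower for bleomycin with LNA-control. The median difference was 0.09 log2 units for the inhibitor in bleomycin lungs and -0.08 for bleomycin with LNA-control, against 0.01 and 0.00 over all genes.

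Among receptors and co-receptors, 6 of 12 were lower after bleomycin with LNA-control and none higher, and 4 were higher with LNA-miR-199a-5p in bleomycin lungs. Acvrl1 encodes ALK1, the type I receptor of endothelial cells. It read 14.05, 14.10, 14.08, 14.32 and 14.42 in bleomycin lungs with LNA-miR-199a-5p, against 13.25, 13.40, 13.98, 13.30 and 13.21 in bleomycin lungs with LNA-control, without overlap. The inhibitor difference was 0.77 ± 0.13 (limma adjusted p = 0.000551). Eng, the endothelial co-receptor endoglin, differed by 0.74 ± 0.15 (adjusted p = 0.00188), and Tgfbr3, the co-receptor betaglycan, by 0.80 ± 0.12 (adjusted p = 0.000185). Each of the 3 was also lower after bleomycin with LNA-control, by -0.88 for Acvrl1, -0.72 for Eng and -0.85 for Tgfbr3. The type I receptor Bmpr1a was lower after bleomycin by -0.21 with LNA-control and by -0.28 with LNA-miR-199a-5p, and the activin type II receptor Acvr2a by -0.40 and -0.43 in the same order.

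Of 10 other ligands, 2 were higher and 2 lower with LNA-miR-199a-5p in bleomycin lungs. Bmp8a was lower by -0.38 ± 0.12 (limma adjusted p = 0.0347) and Gdf6 by -0.24 ± 0.08 (0.0284). Gdf6 averaged 5.27 with LNA-miR-199a-5p and 5.51 with LNA-control, below the 25th percentile of gene means (5.73). Gdf2, which encodes BMP9, the circulating ligand of ALK1, was higher by 0.48 ± 0.08 (limma adjusted p = 0.000609), and Bmp3 was higher by 0.40 ± 0.09 (adjusted p = 0.00553). Both were lower after bleomycin with LNA-control, by -0.41 for Gdf2 and -0.52 for Bmp3, while Bmp7 was higher by 0.43 and did not differ by a passing amount between the bleomycin groups. Gdf2 read 6.93 to 7.13 in bleomycin lungs with LNA-miR-199a-5p and 6.39 to 6.79 in bleomycin lungs with LNA-control, in the lower part of the array scale.

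Secreted antagonists and modulators went both ways, with 3 of 17 higher and 6 lower with LNA-miR-199a-5p in bleomycin lungs. Fst, which encodes the activin and BMP binding protein follistatin, read 8.67, 8.44, 8.30, 8.74 and 8.61 there, against 10.05, 9.06, 8.56, 9.82 and 9.98 in bleomycin lungs with LNA-control. The groups overlapped through replicate 3 of the bleomycin LNA-control group, the array that was also nearest to the other groups for Grem1. The Fst difference was -0.94 ± 0.23 (limma adjusted p = 0.00707). Noggin (Nog) differed by -0.73 ± 0.22 (adjusted p = 0.0238), Fstl1 by -0.73 ± 0.14 (0.00139), and Bmp1, a metalloprotease that cleaves procollagen and is no BMP ligand, by -0.58 ± 0.07 (5.09e-05). The chordin-like antagonist Chrdl1 ran against these, at 0.65 ± 0.09 (adjusted p = 0.000192). So did Nbl1 at 0.39 ± 0.10 (0.0131) and Tll1 at 0.39 ± 0.11 (0.0209). Nog averaged 5.98 in bleomycin lungs with LNA-miR-199a-5p, below the median of all spots (6.14).

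Of 14 SMADs and intracellular regulators, 4 were higher and 1 lower with LNA-miR-199a-5p in bleomycin lungs. Smad9, a receptor-regulated SMAD of the BMP branch, was higher by 0.66 ± 0.09 (limma adjusted p = 0.000126), and the inhibitory Smad6, itself a BMP target, by 0.44 ± 0.12 (0.0134). After bleomycin with LNA-control, Smad9 differed from PBS by -0.87 and Smad6 by -0.77. Among 15 target genes outside the members, which again include Smad6, Smad7 and Bambi, 5 were higher and 1 lower with LNA-miR-199a-5p. Tmem100, a target of ALK1 in endothelial cells, was higher by 0.56 ± 0.11 (adjusted p = 0.00186) and Hey1, a transcriptional repressor, by 0.53 ± 0.12 (0.00508). Ccn2, a matricellular gene of fibrosis, was lower by -0.50 ± 0.10 (0.00239).

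Hamp, which encodes the iron hormone hepcidin and is the main liver target of BMP6, had the largest inhibitor difference of the 75 in bleomycin lungs. It read 9.33, 9.25, 9.31, 9.30 and 9.88 in bleomycin lungs with LNA-miR-199a-5p, against 7.12, 7.57, 7.83, 7.20 and 6.74 in bleomycin lungs with LNA-control. After PBS the values were 8.37, 8.71 and 8.34 with LNA-miR-199a-5p, against 8.64, 8.66 and 8.47 with LNA-control. The 4 groups lay in 3 bands, with both PBS groups between the bleomycin groups. The inhibitor difference in bleomycin lungs was 2.12 ± 0.17 (limma adjusted p = 6.16e-07), or 4.35-fold. Hamp was higher after bleomycin than after PBS with LNA-miR-199a-5p (0.94 ± 0.20, adjusted p = 0.00961) and lower with LNA-control (-1.30 ± 0.20, adjusted p = 0.000240), and the bleomycin effects of the 2 arms differed by 2.23 ± 0.28 (0.000254). Hamp2 and Hamp are close copies, and cross-hybridisation of this probe was not tested.

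**Figure D4:**
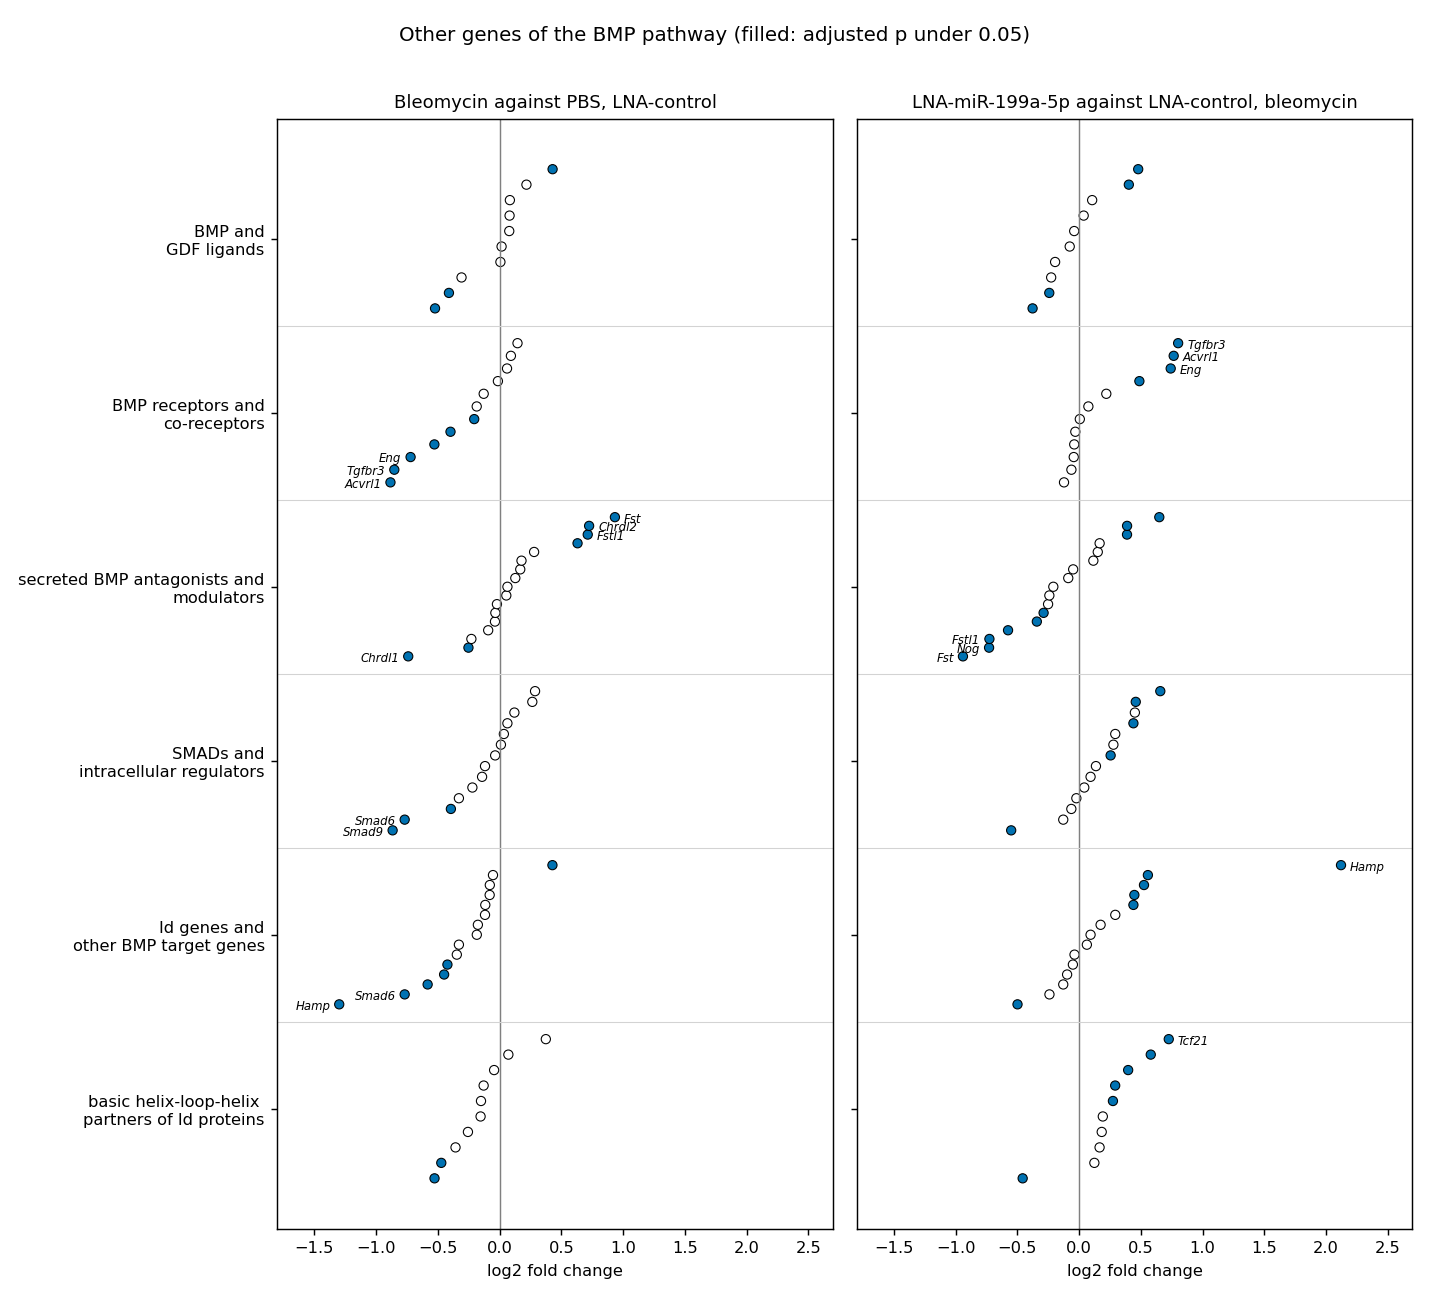
Log2 fold change (x axis) of the 75 other pathway genes by role (y axis), for bleomycin against PBS with LNA-control (left) and for LNA-miR-199a-5p against LNA-control in bleomycin lungs (right), with filled points for an adjusted p under 0.05 and a gene of more than one role drawn in each. Receptors Acvrl1, Eng and Tgfbr3 lie below 0 on the left and above 0 on the right, and Hamp lies farthest right at 2.12.

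The genes whose profile over the 16 arrays was most like that of each member are given by Pearson's r. For Bmp6 they were Septin4 (0.971), the angiopoietin receptor gene Tek (0.962), which is an endothelial gene, and Aox3 (0.960). For Bmp2 they were Colgalt2 (0.963), She (0.962) and Fabp12 (0.962), and for Grem1 they were Ctps (0.944), Ankrd37 (0.939) and Rfc5 (0.937). For Id3 they were Zfp553 (0.925), Vezf1 (0.925) and the mural cell receptor gene Notch3 (0.914), and for Id2 Robo2 (0.929), Snx7 (0.916) and Acer3 (0.915). Bmp4 was led by Os9 (0.930), Bmp5 by Mib1 (0.895), Bmpr2 by Samd5 (0.894) and Id1 by Ddx20 (0.883). The 16 points share the 4 groups, so these values describe group differences as much as variation between lungs.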

How the data were processed

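Whole-lung RNA (0.2 ug per sample) was hybridised to one-colour Agilent arrays. The values were log2 intensities as deposited by the authors, and limma was used by them per the submitters' processing notes. The deposited table held 62976 spots on 16 arrays with values of 4.61 to 18.3. Sorted values of the arrays differed by at most 0.0974, as after quantile normalization, and they were not normalized again. Background correction is not given in the sources used here.

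Of the spots, 31465 carried 1 gene symbol and 31511 none. Symbols were updated through RefSeq accessions for 29050 probes. The probe with the highest mean stood for each of 20863 genes, of which 6086 had several probes. One model of the 4 group means was fitted in limma 3.58.1 (R 4.3.3) with lmFit and eBayes, and p-values were adjusted by Benjamini-Hochberg over all genes, with a threshold of 0.05. Contrasts were bleomycin against PBS in each LNA arm, LNA-miR-199a-5p against LNA-control after bleomycin and after PBS, and their interaction. Exact two-sided permutation tests used scipy 1.17.1. The fit was tested on simulated data.

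The members, the pathway and marker lists and the rule for named genes were chosen with earlier results of these data known. Named genes were the members, pathway genes past the threshold, and for each member genes of highest correlation among those with a mean above the median.

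Arrays of a group correlated at 0.989 or more, and no pair was a duplicate (smallest median absolute difference 0.106 log2 units). The number of arrays limits the precision. Slide and scan date were not analysed here. Deviations from the group mean were compared between arrays of the same replicate number. The 3 pairs of PBS arrays correlated at 0.108 to 0.497. PBS arrays of unlike number in the 2 LNA arms correlated at -0.452 to 0.287. The highest of these was LNA-miR-199a-5p replicate 2 with LNA-control replicate 1, above the replicate 2 pair (0.108). The main fit was unpaired. The replicate block was an alternative fit, with pairs taken from the data and not from a label. Bleomycin arrays of the same number in the 2 LNA arms correlated at -0.373 to 0.0271. The RNA integrity number averaged 9 in the bleomycin LNA-miR-199a-5p group, 8.2 in the bleomycin LNA-control group and 8.33 in either PBS group. Alternatives were probe averaging, median centring, a filter on low genes, array weights, the compared arrays alone, the replicate block, RNA integrity, marker means as covariates, and leaving out arrays.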

Additional observations from a re-analysis of the deposited data

Results flagged for a closer look

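For 2 members, what bleomycin did depended on the LNA given, by the interaction test in limma. For Bmp6 the bleomycin effect with LNA-miR-199a-5p exceeded that with LNA-control by 1.42 log2 units (adjusted p = 0.00163). For Grem1 the same difference was -2.60 log2 units (adjusted p = 0.00592). Both passed without any 1 of the 16 arrays, and neither passed with the endothelial marker mean, or the squamous, brown fat and heart means, as covariates. In 18 sets of a member and a group of 5 arrays, no array stood apart from the rest by Dixon's test.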

How the results depend on the processing

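The Bmp2, Bmp6 and Grem1 calls in the 2 comparisons against bleomycin with LNA-control held under every leave-one-out fit, while the marker covariates changed most results. The cause was not tested. Counts of called genes are given by comparison. For bleomycin with LNA-control the count of 3651 became 6713 with array weights, 2429 with the replicate block, 2258 without the thymus-rich arrays, 1282 with squamous, brown fat and heart covariates, 882 with the endothelial covariate, and 2293 (PBS LNA-control replicate 3) to 3984 when 1 array was left out. For bleomycin with LNA-miR-199a-5p, 2786 became 271 on the compared arrays alone, 1162 with RNA integrity, 663 with the replicate block, 10 and 1394 with the squamous, brown fat and heart and the endothelial covariates, and 1186 (PBS LNA-miR-199a-5p replicate 3) to 3534 without 1 array, with 1360 and 1400 without replicates 1 and 2 of that group and 1721 without bleomycin LNA-miR-199a-5p replicate 5. For the inhibitor in bleomycin lungs, 5188 became 2981 with RNA integrity, 2356 without the thymus-rich arrays, 117 and 151 with the same covariates, and 3785 to 5640 without 1 array. For the inhibitor in PBS lungs, 10 became 394 with weights, 0 on the compared arrays alone (limma, 2317 at an unadjusted p under 0.05), 3 with the replicate block, 3 without the thymus-rich arrays, 5 with either covariate set, and 2 to 121 without 1 array, the highest without PBS LNA-miR-199a-5p replicate 3. For the interaction, 1462 became 3862 with weights, 733 with RNA integrity, 947 with the block, 525 without the thymus-rich arrays, 27 and 36 with the covariates, and 632 (PBS LNA-control replicate 2) to 2215 (bleomycin LNA-control replicate 3) without 1 array.

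For bleomycin with LNA-control, members called numbered 4, against 1 with either covariate set (Bmp6 with squamous, brown fat and heart, Bmp4 with the endothelial mean) and 3 to 6 without 1 array. For the interaction they numbered 2, against 0 in limma with either covariate set (2 unadjusted in each) and 2 to 3 without 1 array. For the inhibitor in bleomycin lungs 7 became 5 with RNA integrity and 0 with either covariate set (6 to 7 without 1 array). Bmp2 was the 1 member called for bleomycin with LNA-miR-199a-5p with the endothelial covariate. With RNA integrity, Bmp5 (-0.25, adjusted p = 0.114) and Id3 (0.24, 0.0744) did not pass between the bleomycin groups.

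With the endothelial covariate the sign turned for bleomycin with LNA-control in Bmp2 (0.0283), Bmp4 (0.78, adjusted p = 0.0483), Bmpr2 (0.0933) and Id3 (0.18), for the inhibitor in bleomycin lungs in Bmp2 (-0.0332), Bmp4 (-0.69) and Id3 (-0.15), for the inhibitor in PBS lungs in Bmp4 (0.0238), for bleomycin with LNA-miR-199a-5p in Grem1 (0.0111), and for the interaction in Bmp2 (-0.47), Bmp4 (-0.71), Bmpr2 (-0.62) and Id3 (-0.40). With squamous, brown fat and heart covariates it turned for Bmp4 (0.39) and Bmp5 (0.0324) with LNA-control, Bmp4 (-0.45) between the bleomycin groups, Bmp6 (-0.20) for bleomycin with LNA-miR-199a-5p, plus the interactions of Bmp2 (-0.14), Bmp4 (-0.16), Bmpr2 (-0.59) and Id3 (-0.0344). RNA integrity turned Bmp4 for bleomycin with LNA-control (0.0129) and the inhibitor in bleomycin lungs (-0.0002), leaving out the thymus-rich arrays turned Bmp4 with LNA-control (0.0658), and median centring turned Id1 (-0.0064) for bleomycin with LNA-miR-199a-5p. Without 1 array, values ranged over 0 for Bmp4 with LNA-control (-0.0542 to 0.0439), the Bmp5 interaction (-0.1785 to 0.026) and Id1 for bleomycin with LNA-miR-199a-5p (-0.0039 to 0.0991).

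With median centring, Bmpr2 (-0.70, adjusted p = 0.0399) and Id3 (-0.29, 0.0459) passed for bleomycin with LNA-control. Array weights also passed Bmpr2 (0.00283), Id3 (0.00209) and the Id2 interaction (-0.48, 0.00819), and the filter on low genes passed Bmpr2 (0.0392) and the Id2 interaction (0.0422). The replicate block changed no member's call, and the filter on the lower genes left out Bmp2 and Grem1. Signal over background was not analysed here.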

Other observations

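Id proteins act by binding basic helix-loop-helix factors, so 10 measured genes of such factors were listed. They are part of the 75 other genes above, so their calls are already in those counts. In bleomycin lungs 5 were higher (13.4% of all genes) and 1 lower (11.4%) with LNA-miR-199a-5p against LNA-control (limma). Their median was 0.23 log2 units, against 0.01 over all genes. Tcf21, a factor of lung mesenchyme, was higher by 0.73 ± 0.18 (adjusted p = 0.00934), and Twist2 by 0.58 ± 0.10 (adjusted p = 0.000473). The haematopoietic and endothelial factors Lyl1 and Tal1 were higher by 0.40 ± 0.08 (0.00229) and 0.29 ± 0.08 (0.0114). The E proteins went both ways, with Tcf3 at 0.27 ± 0.09 (0.0276) and Tcf12 at -0.46 ± 0.16 (0.0489). After bleomycin with LNA-control, Tcf4 (-0.53 ± 0.11, 0.00226) and Tal1 (-0.47 ± 0.09, 0.00133) were lower than after PBS.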
